A study of Mus musculus with 8 samples.

Results

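The genes described here encode the proteins of the cytosolic ribosome. They were taken by name from an expression array of the mouse posterior second heart field (pSHF): every gene whose symbol in the scanner files was Rps or Rpl with a number and an optional suffix, leaving out the kinases of the Rps6k family. The rule found 134 of the 41174 probes, for 78 genes of 27827 gene names, 31 of the small (40S) subunit and 47 of the large (60S) subunit. Probes entered the test if the scanner software marked them well above background throughout at least 1 group of 4 arrays, and 123 of the 134 probes, for 76 of the 78 genes, passed, against 20031 of all 41174. The 11 probes that did not pass were both probes of Rpl39l, the probe of Rpl3l, and further probes of Rpl22l1, Rpl35a, Rpl37, Rps2, Rps4x, Rps6, Rps18 and Rps19, each of which had another probe that passed.

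Ribosomal proteins fold with ribosomal RNA into the 40S subunit, which reads the messenger RNA, and the 60S subunit, which joins amino acids. Their genes are transcribed in every dividing cell, and their mRNAs commonly begin with a C and a run of pyrimidines, through which the mTOR pathway sets their translation. Loss of 1 copy of such a gene can give tissue-restricted defects, among them the pigmentation and tail mutants of the mouse and Diamond-Blackfan anaemia in humans.

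RNA came from the pSHF, the mesenchyme behind the heart that feeds the inflow tract and atrial septum, at embryonic day 9.5. There were 4 samples heterozygous for a Tbx5 mutation (Tbx5-/+) and 4 wild-type samples (Tbx5 WT), all on a mixed genetic background and all from superovulated females. Tbx5 is the T-box transcription factor whose dosage the study examined. Per the labels each sample was a pool of RNA, with the number of embryos not given. Both groups hold the embryo numbers 1, 5, 6 and 7, and each sample is named here by group and number. Numbers 1 and 5 were on array label 1 and numbers 6 and 7 on array label 2, while on either slide positions 1 and 3 held Tbx5-/+ and positions 2 and 4 held Tbx5 WT, so that position and genotype cannot be told apart. Where nothing says that the pools came from separate litters, p-values measure the spread between these samples only.

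The labels and the tissue were checked first. At the brighter Tbx5 probe (chr5:120334087-120334146 on mm9) the log2 level was 9.13 ± 0.46 in Tbx5-/+ and 11.24 ± 0.55 in Tbx5 WT (SD, n = 4), and all 4 Tbx5-/+ samples lay below all 4 Tbx5 WT samples. The second Tbx5 probe differed by -0.15 with an SE of 0.32, and whether either lies in the part removed by the mutation is not given in the sources used here. All 12 listed pSHF markers passed the filter, 7 of them on all 8 arrays, but so did all 10 cardiomyocyte, 10 foregut endoderm and 8 endothelial markers, and Tbx5-/+ 1 had the lowest summed level of the pSHF, cardiomyocyte, endothelial, liver bud and primitive erythrocyte markers of the 8 samples. Fewer cells of a type and less RNA per cell cannot be told apart in such tissue.

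Probe sequences are shown for 4 genes at the ends of the range described below: Rps25 and Rpl22, whose probes had the highest differences, and Rps26 and Rpl29, whose probes had the lowest. On mm9 the Rps25 probe lies at chr9:44216846-44216905 and the Rpl22 probe at chr4:151704158-151704217, both on the plus strand. The Rpl29 probe lies at chr9:106332644-106332703 on the plus strand, and the Rps26 probe spans an intron between chr10:128062363 and 128063147 on the minus strand. Each holds 60 bases, written 5′ to 3′ as the scanner files give them, with no part singled out by capitals.
Rps25: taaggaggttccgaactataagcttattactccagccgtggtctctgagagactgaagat
Rpl22: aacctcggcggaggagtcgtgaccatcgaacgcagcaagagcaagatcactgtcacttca
Rps26: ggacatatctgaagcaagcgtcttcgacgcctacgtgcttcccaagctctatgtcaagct
Rpl29: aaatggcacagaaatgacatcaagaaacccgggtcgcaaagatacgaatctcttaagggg
Of the 98 member probes whose gene had a strand in the RefSeq table and whose position lay on the gene's chromosome, all 98 lay on the gene's strand. A probe each of Rpl10 and Rpl12 was mapped to another chromosome (8 and 10) than its gene (X and 2). Ribosomal protein genes have many near-identical processed copies in the genome, and RNA from such copies cannot be told apart from that of the gene by 60 bases.

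The comparison asked how these genes differ in the pSHF when 1 allele of Tbx5 is mutated. Levels of ribosomal protein genes were mostly higher in Tbx5-/+, and none passed the adjusted test. With limma, 0 of 20031 probes passed an adjusted p of 0.05 in either direction (0% higher and 0% lower), and so 0 of the 123 member probes passed, the lowest adjusted p among them being 0.149. At an unadjusted p under 0.05, 37 member probes were higher and 3 were lower, against a background of 3.38% higher and 18.5% lower among all probes tested. The difference was above 0 for 99 of the 123 member probes, against 34.6% of all probes.

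With each gene taken at its brightest tested probe, 68 of 76 genes were above 0 (54 after quantile normalization and 75 under scaling to the 75th percentile). At an unadjusted p under 0.05, 34 were higher and 1 was lower, where all probes had 3.38% and 18.5%. The median difference of the 76 genes was 0.52 on the log2 scale, within a range from -0.50 to 1.26. The median of all probes tested was itself -0.19, so the genes stood 0.71 above it, and 73 of 76 lay above that median. The 31 genes of the 40S subunit had a median difference of 0.55, with 16 higher and 1 lower at the unadjusted threshold. For the 45 tested genes of the 60S subunit the median was 0.47, with 18 higher and 0 lower.

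**Figure D1:**
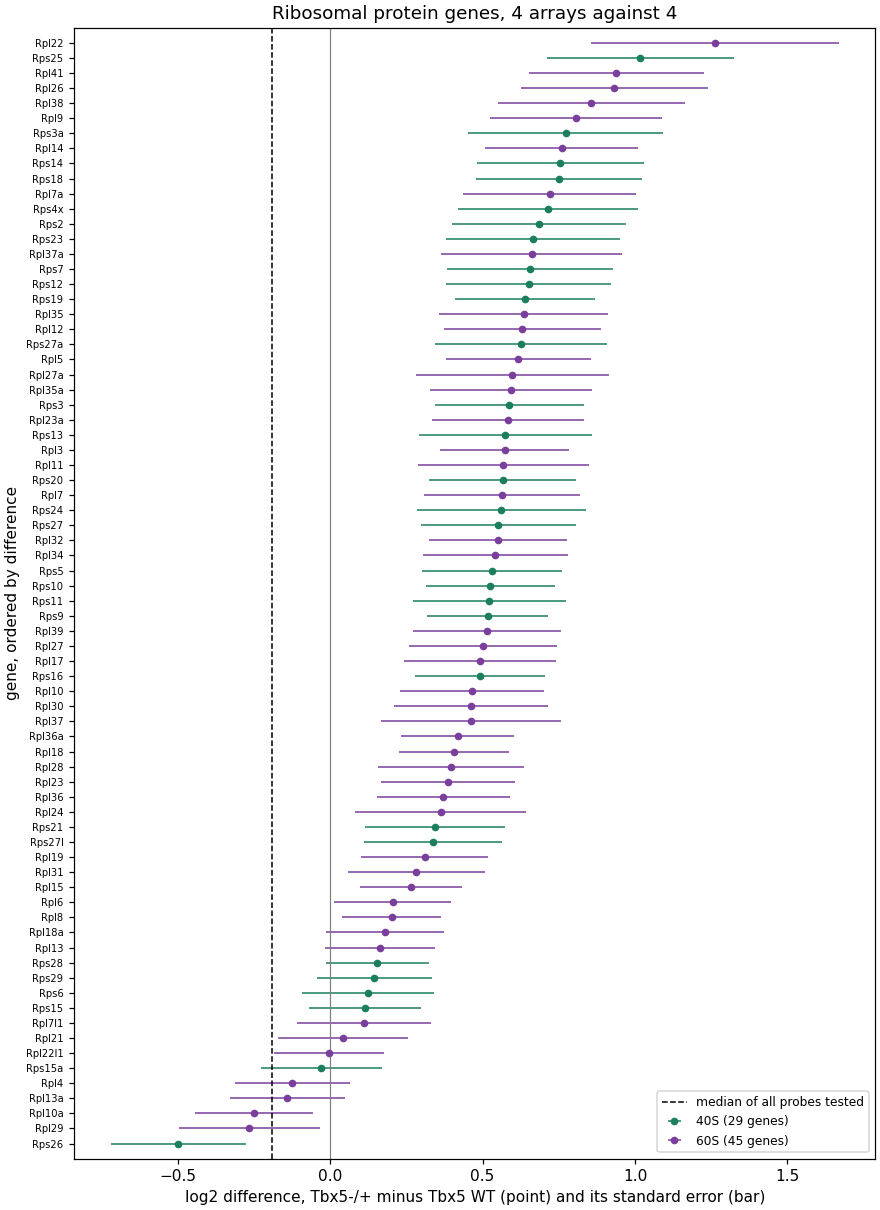
Log2 difference between Tbx5-/+ and Tbx5 WT (4 arrays against 4) for 74 of the 76 ribosomal protein genes at their brightest tested probe, ordered by size, with points for the difference and bars for its standard error, green for 40S and purple for 60S. Genes of both subunits are mixed along the order, 67 lie right of 0, and Rpl22 (1.26) and Rps26 (-0.50) stand at the ends, under VSN scaling.

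On VSN levels without further centring, Tbx5-/+ 1 stood apart from the 3 other Tbx5-/+ samples. Relative to each gene's Tbx5 WT mean, the median deviation over the 76 genes was 0.59 in Tbx5-/+ 5, 0.97 in Tbx5-/+ 6 and 0.60 in Tbx5-/+ 7, but -0.12 in Tbx5-/+ 1. The 4 Tbx5 WT samples had medians between -0.04 and 0.05. Of the 76 genes, 68, 66 and 62 were above every Tbx5 WT sample in Tbx5-/+ 5, 6 and 7, and 4 were in Tbx5-/+ 1. Set against all probes of the same sample, the order was different: the median level of the 76 genes exceeded that of all probes by 6.62 in Tbx5-/+ 1, by 7.16 to 7.74 in Tbx5-/+ 5, 6 and 7 and by 6.32 to 6.49 in Tbx5 WT. On that relative scale all 4 Tbx5-/+ samples lay above all 4 Tbx5 WT samples, with Tbx5-/+ 1 nearest to them. Tbx5-/+ 1 had the lowest median of the genes, 16.33, and a median of all probes of 9.71, against 9.89 to 10.06 in Tbx5 WT. Deviations from Tbx5 WT after quantile normalization did not keep that order. The medians of the genes and of all probes were then 0.018 and 0.028 in Tbx5-/+ 1 and 0.035 and -0.0021 in Tbx5 WT 5. The genes varied less among the Tbx5 WT samples than probes in general, with a median SD of 0.11 against 0.26 for all probes tested. Among Tbx5-/+ samples the median SD was 0.45, and without Tbx5-/+ 1 it was 0.23.

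**Figure D2:**
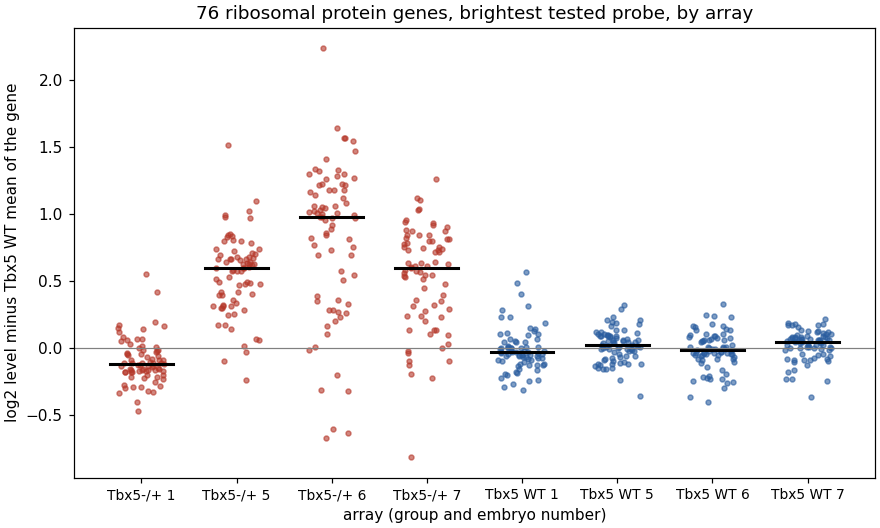
Deviation of the log2 level from the Tbx5 WT mean of the gene (vertical axis) for the 76 ribosomal protein genes in each of the 8 samples (horizontal axis), red for Tbx5-/+ and blue for Tbx5 WT, with 1 point per gene and black bars at the medians. Tbx5-/+ 5, 6 and 7 have medians of 0.59, 0.97 and 0.60, and Tbx5-/+ 1 has a median of -0.12 beside the Tbx5 WT samples, under VSN scaling.

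The comparison without Tbx5-/+ 1 is given as a description, because that sample was singled out by the levels of these same genes and the calls on the other samples are no separate test. With Tbx5-/+ 5, 6 and 7 against 4 Tbx5 WT samples, 47 of the 76 genes (57 of 123 probes) passed an adjusted p of 0.05 by limma with higher levels and 0 with lower levels, against 7.03% higher and 12.2% lower among all probes. All 3 Tbx5-/+ samples lay above all 4 Tbx5 WT samples for 60 genes, against 16% of all probes, and below them for 0 genes, against 21.9%. With all 4 samples, 4 member probes had no overlap between the groups, all with higher levels in Tbx5-/+, against 0.744% of all probes, and 0 did with lower levels, against 8.97%. That count changed with the scaling. Scaled to the 75th percentile, 66 member probes (49 genes) had no overlap and were higher, against 9.63% of all probes, and centred on the array median 55 probes (41 genes) did, against 8.95%. Under both, 0 member probes lay apart with lower levels, against 3.74% and 2.45%. After quantile normalization 13 were higher and 2 lower, against 5.04% and 3.97%, and with spike-in centring 0 were apart in either direction, against 0.00499% higher and 1.36% lower. The 4 probes under VSN, named after their values were seen, were of Rpl15, Rpl36a, Rpl41 and Rps2. Weighting the samples by limma's array weights called 51 genes higher and 1 lower, against 14.1% and 29.5% of all probes.

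The median difference of the 76 genes was -0.07 within number 1, 0.54 within 5, 0.97 within 6 and 0.55 within 7, where the median of all probes was -0.29, -0.08, -0.22 and -0.17. Of the 76 genes, 21, 71, 71 and 64 were higher in Tbx5-/+ within numbers 1, 5, 6 and 7, against 16.8%, 43.5%, 39.5% and 40.4% of all probes. Within number 1 the median of the genes was 0.22 above that of all probes, and 68 of the 76 genes lay above it, where 73, 72 and 72 did within the others. With the embryo number as a block, 1 member passed, Rpl41 with an adjusted p of 0.047, against 0.379% of all probes higher and 10.7% lower. Within array label 1, which holds Tbx5-/+ 1, the median difference of the genes was 0.24, and within array label 2 it was 0.76. Levels were higher in Tbx5-/+ within all 4 numbers for 18 genes (23.7%, against 3.81% of all probes) and lower in all 4 for Rps26 and Rpl29 (2.63%, against 36.2%).

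Rps25, a 40S protein, had the smallest p of the members. Its log2 levels at the printed probe were 16.57, 17.52, 17.99 and 17.69 in Tbx5-/+ 1, 5, 6 and 7 and 16.58, 16.18, 16.76 and 16.20 in Tbx5 WT of the same numbers. Tbx5-/+ 1 lay among the Tbx5 WT samples and the other Tbx5-/+ samples lay above all of them. The difference was 1.02 with an SE of 0.31, an adjusted p of 0.149 by limma and an exact permutation p of 0.0857. A second, dim probe of Rps25 differed by 0.72 with an SE of 0.32.

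Rpl41, the shortest ribosomal protein, was the only gene named here by the smallest p whose groups did not overlap. Its levels were 17.74, 18.62, 19.24 and 18.55 in Tbx5-/+ and 17.56, 17.63, 17.69 and 17.50 in Tbx5 WT. Tbx5-/+ 1 exceeded the highest Tbx5 WT sample by less than the spread among the other Tbx5-/+ samples. The difference was 0.94 with an SE of 0.29 and an adjusted p of 0.154 by limma, or 0.047 with the embryo number as a block. The exact permutation p was 0.0286, the smallest that 70 unpaired assignments can give.

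Rpl26, a 60S protein that also binds the p53 mRNA, differed by 0.93 with an SE of 0.31, and Rpl14, another 60S protein, by 0.76 with an SE of 0.25. For Rpl14 the samples of number 1 matched closely, at 12.93 in Tbx5-/+ and 12.99 in Tbx5 WT, above the 3 other Tbx5 WT samples at 12.28 to 12.42. The brightest member probe belonged to Rpl7a, of the 60S subunit, with 18.53 ± 0.57 in Tbx5-/+ and 17.81 ± 0.22 in Tbx5 WT. The dimmest tested member probe, a second probe of Rps15a, differed by -0.26 with an SE of 0.20.

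Rpl22, a 60S protein that binds RNA and is needed for T cell development, had the widest difference between its own probes. At the printed probe the levels were 15.04, 16.36, 17.09 and 15.95 in Tbx5-/+ and 15.42, 14.49, 15.01 and 14.48 in Tbx5 WT, a difference of 1.26 with an SE of 0.41 and an adjusted p of 0.168. At a second probe of similar signal in the same gene (chr4:151708012-151708071) the levels were 14.53, 14.72, 14.55 and 14.79 against 14.81, 14.88, 14.48 and 14.93. That probe differed by -0.13 with an SE of 0.18, and by 0.24 under scaling to the 75th percentile and 0.08 with spike-in centring, so that its sign depended on the scaling while the gap between the 2 probes did not.

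Members with lower levels in Tbx5-/+ were few. Rps26, a 40S protein mutated in Diamond-Blackfan anaemia, had levels of 14.63, 14.71, 14.34 and 14.14 in Tbx5-/+ and 14.89, 15.24, 14.55 and 15.13 in Tbx5 WT. The groups overlapped, through Tbx5 WT 6. The difference was -0.50 with an SE of 0.22 and an adjusted p of 0.228, and it kept its sign under each of 4 scalings compared (-0.14 to -0.61). Rpl29, a 60S protein and heparin-binding protein, was lower at each of its 4 tested probes, by -0.77, -0.62, -0.46 and -0.27, the last being its brightest, which turned to 0.11 under scaling to the 75th percentile and 0.06 with each sample centred on its median. The printed probe read 12.22, 12.76, 11.49 and 12.18 in Tbx5-/+ and 12.54, 13.17, 13.24 and 12.79 in Tbx5 WT.

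Genes whose loss has a known phenotype were described as a group of 14. At the brightest probe 13 of 14 were above 0 (10 after quantile normalization), with a median difference of 0.57 and 0 passing the adjusted threshold. At the unadjusted threshold 7 were higher and 1 lower, against 3.38% and 18.5% of all probes. After quantile normalization 1 was higher and 1 lower, against 9.53% in each direction. Rpl38, which is needed for translation of homeobox mRNAs and for axial patterning, had 17.77 ± 0.65 in Tbx5-/+ and 16.91 ± 0.17 in Tbx5 WT, a difference of 0.86 with an SE of 0.31 and an adjusted p of 0.192. Its levels in Tbx5-/+ were 16.85, 17.90, 18.39 and 17.95, and in Tbx5 WT 16.78, 16.79, 17.16 and 16.92. Rpl24, the gene of the Belly spot and tail mutant, differed by 0.36 and 0.21 at its 2 probes, with SEs of 0.28 and 0.23.

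Rpl5 and Rpl11, which carry 5S ribosomal RNA and bind Mdm2, differed by 0.62 and 0.57 with SEs of 0.24 and 0.28. Rps19 and Rps20, genes of the dark skin mutants, differed by 0.64 and 0.57 with SEs of 0.23 and 0.24. Among other genes of Diamond-Blackfan anaemia, Rps7 differed by 0.66, Rpl35a by 0.59, Rps24 by 0.56 and Rps10 by 0.52. Rpl27a, mutated in the sooty foot ataxia mouse, differed by 0.60, and Rps6, the protein that S6 kinase phosphorylates, by 0.12. Signs of Rps20 and Rps6 turned under normexp and quantile normalization, to -0.01 and -0.13.

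Tested paralogs of ribosomal proteins are set beside their parent genes. Rpl22l1, the relative of Rpl22, differed by -0.0035 with an SE of 0.18 and changed sign with the scaling, Rpl7l1 by 0.11 with an SE of 0.22, and Rps27l by 0.34 with an SE of 0.23. The parents Rpl22, Rpl7 and Rps27 differed by 1.26, 0.56 and 0.55 at their brightest probes. The difference between paralog and parent was not tested. Rpl3l and Rpl39l, known from striated muscle and testis, were not well above background on any sample but 1, a Tbx5-/+ sample at 1 of the Rpl39l probes, while their parents Rpl3 and Rpl39 differed by 0.57 and 0.52. The 4 X-linked genes Rps4x, Rpl10, Rpl39 and Rpl36a had 7 tested probes, all 7 above 0, with a median of 0.47. Probes were counted here by gene name, and that median is the value of the Rpl10 probe mapped to chromosome 8.

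Of the 78 genes, 59 had a promoter in the RefSeq table on GRCm38.p6, 71 promoters in all. A C followed by 4 letters that are each C or T lay between 5 bases before and 10 bases into the transcript in 30 of these 71 promoters (42.3%), against 18.3% of all 32851 promoters. The letters AGGTGTG, a T-box motif, or their reverse complement CACACCT lay within 250 bases before to 50 bases after the start in 2 of 71 (2.82%), against 5.84% of all promoters. The 28 tested genes with the pyrimidine start had a median difference of 0.52 and the 29 without it 0.57. Starts of 6 named genes are shown from 15 bases before to 15 bases into the transcript, with the longest run of C and T touching the start region in capitals, to show 3 genes with the motif and 3 with the highest differences, which lack it.
Rpl7a: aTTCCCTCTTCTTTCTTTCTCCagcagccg
Rpl38: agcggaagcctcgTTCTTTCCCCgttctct
Rps26: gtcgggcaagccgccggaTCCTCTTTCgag
Rps25: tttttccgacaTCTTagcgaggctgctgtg
Rpl22: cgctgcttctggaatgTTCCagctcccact
Rpl41: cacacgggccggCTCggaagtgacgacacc
On GRCm38.p6 these lie at chr2:26910792-26910821 (Rpl7a), chr11:114668565-114668594 (Rpl38), chr9:44407699-44407728 (Rps25) and chr4:152324421-152324450 (Rpl22) on the plus strand, and at chr10:128626492-128626521 (Rps26) and chr10:128549154-128549183 (Rpl41) on the minus strand. Rpl22 has a second promoter in the table, not shown.

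Probes of 1 gene did not always agree. With VSN, 9 of 36 genes with more than 1 tested probe had probes of both signs, and the median range between probes was 0.31. The brightest probe had a higher difference than the dimmest in 33 of 36 with VSN. After quantile normalization that order was reversed in some genes and kept in others. Rps12 then differed by 0.19 at the brightest probe and 0.55 at the dimmest, and Rpl22 by 1.04 and -0.23. Rps19 differed by 0.64 at its bright probe and by -0.40 at a dim one, whose levels were 11.24, 11.11, 10.90 and 10.85 in Tbx5-/+ and 11.54, 11.36, 11.08 and 11.71 in Tbx5 WT. At Rpl19 the brighter probe differed by 0.31 and the other by -0.36, and Rps21, Rps24 and Rps28 each had probes on both sides of 0. A dim probe of Rpl11 read 9.13 in Tbx5-/+ 1 and 9.95 in Tbx5 WT 1 and between 11.06 and 11.88 in the other 6 samples. The 107 tested probes whose accessions include a RefSeq mRNA had a median difference of 0.41, and the 16 without one a median of 0.13. Their median levels were 16.34 and 10.83, and the part of signal in that contrast was not tested.

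**Figure D3:**
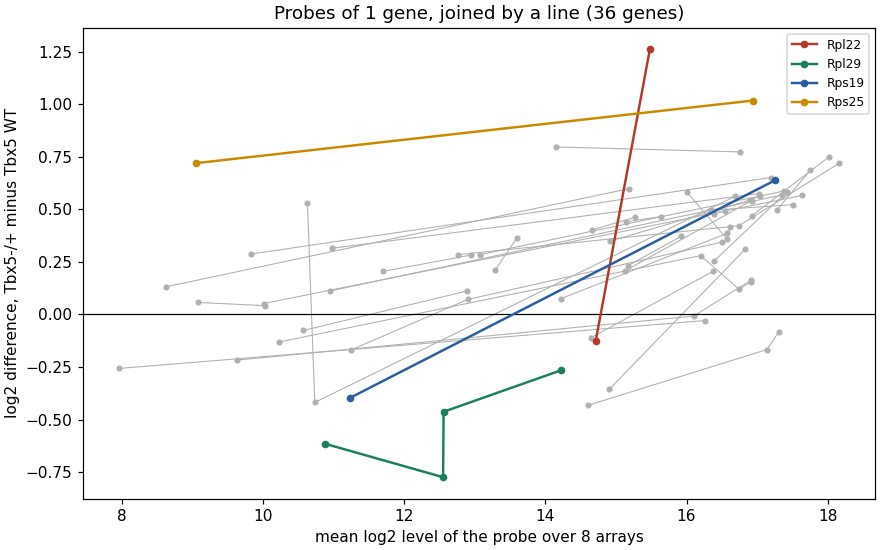
Log2 difference between Tbx5-/+ and Tbx5 WT (vertical axis) against the mean log2 level of the probe over 8 arrays (horizontal axis) for the 36 genes with several tested probes, with the probes of a gene joined by a line and 4 genes coloured. With VSN, the brightest probe lies higher than the dimmest in 33 of 36 genes, an order that quantile normalization reverses in some of them. All 4 Rpl29 probes lie under 0 with VSN, the brightest turning to 0.11 under scaling to the 75th percentile.

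The difference moved with signal in other genes too. Among probes with a mean log2 level of 16 or over, the 65 member probes had a median difference of 0.53 with 61 above 0, and the 220 other probes had a median of 0.36 with 82.7% above 0. Between 14 and 16 the medians were 0.34 for 30 member probes and 0.15 for 1110 others, and under 10 the 10485 other probes had a median of -0.28. Of the 100 brightest probes tested, 36 were members, with a median of 0.59, and the other 64 had a median of 0.48. The level of a probe also depends on its sequence and does not rank the amounts of different transcripts.

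**Figure D4:**
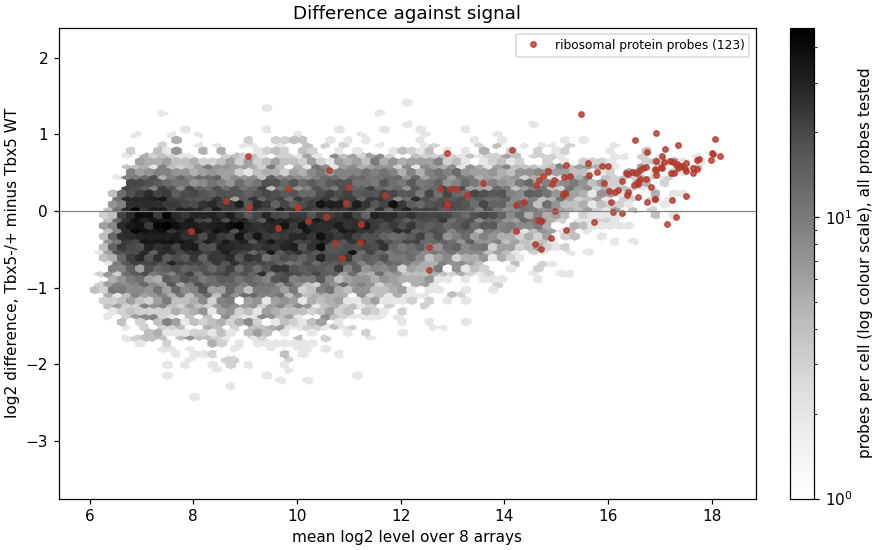
Log2 difference between Tbx5-/+ and Tbx5 WT (vertical axis) against the mean log2 level over 8 arrays (horizontal axis), with all 20031 tested probes as grey cells (darker for more probes, log colour scale) and the 123 ribosomal protein probes in red. At 16 and over, both the members (median 0.53) and the other probes (0.36) lie mostly above 0, under VSN scaling.

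The scaling between samples set the size of the difference. Scaled to the 75th percentile of each array, the 76 genes had a median difference of 0.90, 0.80 above the median of all probes, with 75 genes above 0 (56.5% of all probes), 65 higher and 0 lower at the unadjusted threshold (15.6% and 8.61% of all probes). With VSN levels centred on the array median, 75 genes were above 0 (60.1%), 64 higher and 0 lower (16.2% and 6.64%), and centred on the spike-in spots 73 were above 0 (51.5%), 1 higher and 0 lower (0.24% and 1.4%). After normexp and quantile normalization the median was 0.10, 0.11 above that of all probes, with 54 genes above 0, against 48.7% of all probes. At the unadjusted threshold 6 genes were then higher and 3 lower, against 9.53% of all probes in each direction, so that the share of higher genes was no larger than the background. Under quantile normalization the other probes of 16 and over had a median of -0.01 and the members there 0.06. By sample, the median deviation from Tbx5 WT under quantile normalization was 0.02, 0.10, 0.13 and 0.13 in Tbx5-/+ 1, 5, 6 and 7 and -0.01 to 0.03 in Tbx5 WT. Under the 75th percentile it was 0.23, 0.79, 1.63 and 0.90 in Tbx5-/+ 1, 5, 6 and 7 and -0.09 to 0.12 in Tbx5 WT. Tbx5-/+ 1 was then above every Tbx5 WT sample for 52 genes.

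**Figure D5:**
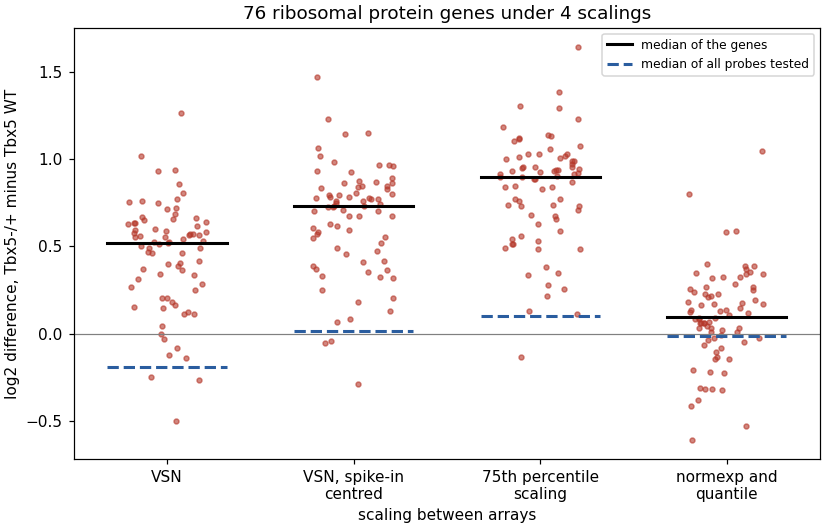
Log2 difference between Tbx5-/+ and Tbx5 WT (vertical axis) for the 76 ribosomal protein genes under 4 scalings between arrays (horizontal axis), with 1 point per gene, black bars at the median of the genes and dashed blue bars at the median of all probes tested. The median of the genes was 0.52, 0.73, 0.90 and 0.10, and it was 0.71, 0.71, 0.80 and 0.11 above that of all probes.

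Measures of the arrays and of other cell types are given beside these values. The scale that VSN fitted to a sample, in natural log units, was 1.78, 2.20 and 1.88 for Tbx5-/+ 5, 6 and 7, and between 1.14 and 1.31 for Tbx5-/+ 1 and the 4 Tbx5 WT samples, the same division as the VSN levels of the genes. The share of spots well above background did not follow it: it was 45.0% to 52.8% in Tbx5-/+, with Tbx5-/+ 1 at 47.4%, and 50.9% to 63.6% in Tbx5 WT. The summed log2 level of the 10 cardiomyocyte markers was 18.21 in Tbx5-/+ 1, 19.12 to 19.36 in the other Tbx5-/+ samples and 18.50 to 19.10 in Tbx5 WT. Primitive erythrocyte markers (9 of 10 tested) summed to 16.75 in Tbx5-/+ 1 and 16.76 in Tbx5 WT 1, and to 18.18 to 19.53 in the other samples, which set number 1 of both groups apart. The 12 pSHF markers, Tbx5 among them, summed to 14.82 in Tbx5-/+ 1 and 16.36 to 17.02 in the other Tbx5-/+ samples. In Tbx5 WT they summed to 15.60 to 16.18, while their median difference was -0.83. At the unadjusted threshold 6 of them were lower and 0 higher, against 18.5% and 3.38% of all probes. The 8 endothelial markers summed to 13.78 in Tbx5-/+ 1, 14.02 to 14.28 in the others and 14.09 to 14.33 in Tbx5 WT. Their median difference was -0.65. With VSN 4 of them (Kdr, Tek, Tie1 and Sox17) were lower in all 4 Tbx5-/+ samples than in any Tbx5 WT sample, against 8.97% of all probes. That count was 2 under the 75th percentile (3.74% of all probes), 2 centred on the array median (2.45%) and 2 after quantile normalization (3.97%). With spike-in centring it was 0 (1.36%). Liver bud markers (5 of 8 tested) had a median of -0.99 with all 5 below 0, foregut endoderm markers a median of -0.32, and neural tube markers (4 of 8 tested) a median of 0.34. The part of these in the result was not tested.

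Other genes of translation gave the frame for these values, each list by its brightest tested probes. The 8 ribosomal proteins whose symbols fall outside the name rule, such as the stalk proteins Rplp0, Rplp1 and Rplp2, were all above 0 (7 of 8 after quantile normalization), with a median of 0.60. At an unadjusted p under 0.05, 5 were higher, against 3.38% of all probes. After quantile normalization 0 were, against 9.53%. Among the 8, Rplp2 read 18.06 ± 0.52 in Tbx5-/+ and 17.36 ± 0.14 in Tbx5 WT. The 32 factors of translation initiation and elongation had a median of 0.09 (-0.15 after quantile normalization), with 6 higher and 1 lower, against 3.38% and 18.5% of all probes. Within that list Eef1a1, the carrier of aminoacyl-tRNA, differed by 0.86 with an SE of 0.33, and Eif5b, which joins the subunits, by -1.17 with an SE of 0.29 (adjusted p of 0.102).

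The 30 genes of ribosome biogenesis had a median difference of 0.03, with 3 higher and 1 lower, where all probes had 3.38% and 18.5%. After quantile normalization their median was 0.16, 0.18 above that of all probes and so above the 0.11 of the cytosolic genes, with 5 higher and 1 lower against 9.53% in each direction. Npm1, nucleophosmin, differed by 0.80, and Gar1, of the H/ACA particles that modify ribosomal RNA, by -1.23. The 75 mitochondrial ribosomal protein genes, which serve the separate ribosome of that organelle, had a median of 0.09. Of these 8 were higher and 2 lower (3.38% and 18.5% of all probes), and 42 were above 0 (34.6% of all probes). Relative to all probes their median was 0.28 with VSN and 0.16 after quantile normalization, where that of the cytosolic genes was 0.71 and 0.11. The 17 tested p53 targets, genes induced when free ribosomal proteins hold Mdm2, had a median of -0.0067 (0.12 after quantile normalization). Of these 3 were higher and 1 lower (3.38% and 18.5% of all probes), with Cdkn1a differing by -0.69 and Mdm2 by 0.84. None of the genes in these lists passed the adjusted threshold in the main fit, which has no block, and differences between lists were not tested. The single genes given for these lists were chosen after their values were seen.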

How the data were processed

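Gene expression was measured in 8 pools of pSHF RNA on 1-colour Agilent mouse arrays, whose 60-base probes carry mm9 positions. Per the file headers, the deposited scanner files hold intensity values of each spot from Agilent Feature Extraction 10.5.1.1. A deposited table gives log2 values after background correction and variance stabilization (VSN) by the authors. The median local background was subtracted here from the mean signal, 1115 outlier spots were left out, and VSN was programmed in R 4.3.3 (90% of probes kept in each of 7 iterations). The values correlated with the deposited ones at 0.9999 or more on each array, and 0 columns belonged to no sample.

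Tbx5-/+ and Tbx5 WT were compared with limma 3.58.1 (two-sided, no covariate) with Benjamini-Hochberg adjustment over all 20031 probes tested at a threshold of 0.05, and single genes also by an exact two-sided permutation test over 70 assignments. The study used an unpaired permutation-based array test, which is not installed here. No spot was saturated (0 on each array). The number of arrays limits the precision, and calls also changed when Tbx5-/+ 1 was left out or the embryo number was a block. In a simulation of this comparison over 20021 probes, of which 200 differed, limma found 0 of those that differed by 1 on the log2 scale, 161 at a difference of 2 (9 false calls) and 191 at a difference of 3 (12 false calls), and made 0 calls where none differed.

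The main limma fit and the permutation test treat the samples as unpaired. Same-numbered samples are paired only in the block fit and in the values within numbers. That pairing is taken from the data. The correlations of same-numbered deviations from the group means were 0.438, 0.4, 0.593 and 0.137 for numbers 1, 5, 6 and 7, although Tbx5-/+ 7 correlated more with Tbx5 WT 6 (0.372). A gene was represented by its brightest tested probe. Named genes were the paralogs and their parents, genes with a known phenotype, the 5 with the smallest p in each direction, at most 6 whose probes disagreed, and the brightest and dimmest. Some of these are not reported here. The members and lists were chosen with earlier results of these data known. Alternatives changed the normalization, filters, blocks, weights and samples.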

Additional observations from a re-analysis of the deposited data

Results flagged for a closer look

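In 70 groups of 4 samples (35 named probes in both groups), 3 had 1 sample far from the other 3, and chance gives about 1 in 20. Rpl7l1 was flagged in both groups through embryo number 1, the highest in each: the levels were 13.38 in Tbx5-/+ 1 against 12.73 to 12.84 in the others (gap over range 0.832) and 13.23 in Tbx5 WT 1 against 12.63 to 12.73 (0.834). Rps7 was flagged in Tbx5 WT, where number 7 read 16.68 and the others 16.56 to 16.57 (0.909).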

How the results depend on the processing

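Counts of calls depended on Tbx5-/+ 1 and on the fit. Leaving out 1 sample at a time, limma called between 0 and 3842 of all probes and between 0 and 57 ribosomal protein probes, the highest without Tbx5-/+ 1, and 212 of all probes without Tbx5 WT 1, and the genes' median relative to all probes lay between 0.52 and 0.88. With the replicate block 2218 probes and 1 ribosomal protein probe were called, and with array weights 8719 and 70. It changed no other call of a named gene, and array weights called 26 of 35 named probes. Normexp and quantile normalization moved the relative median to 0.11, and all other settings kept it between 0.42 (within array label 1) and 0.96 (within array label 2). At an unadjusted p under 0.05 the genes with higher levels were 34 of 76 with VSN (3.38% of all probes). They were 65 under the 75th percentile (15.6%), 64 centred on the array median (16.2%), 1 with spike-in centring (0.24%) and 6 after quantile normalization (9.53%). Other settings gave 55 with array weights, 0 within array label 1, 48 within array label 2, and between 8 and 56 without 1 sample. The share of all probes under those other settings is not given here, so these counts cannot be set against a background. Signs of named probes near 0 turned as follows. Under scaling to the 75th percentile Rpl22l1 came to 0.35, Rpl29 to 0.11, Rps15a to 0.33 and the dimmer Rpl19 probe to 0.011. Under quantile normalization Rps20 came to -0.0086, Rps6 to -0.13, Rpl19 to -0.081 and Rps28 to -0.23. Centred on the array median, Rpl22l1 came to 0.32, Rpl29 to 0.056 and Rps15a to 0.29, and centred on the spike-in spots Rpl22l1 and Rps15a came to 0.21 and 0.18. Rpl22l1 came to 0.20 within array label 2. Leaving out 1 sample took Rpl22l1 to between -0.090 and 0.073, Rps15a to between -0.14 and 0.048, and Rpl7l1 to between -0.036 (without Tbx5-/+ 1) and 0.24 (without Tbx5 WT 1). The cause of these turns was not tested. Signal over background limits the 11 untested probes, for which no level is given. Simulated differences of 1 on the log2 scale were not recovered in the unpaired fit with independent noise at the spread of all 8 arrays.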
